A study of Mus musculus with 11 samples.

Results

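Dusp1, Dusp2 and Dusp6 are the 3 genes of the dual-specificity phosphatase family on a panel of 754 genes that was read in sorted peritoneal macrophages. They were chosen by family and from earlier results on these same values across the 4 groups of treatment and genotype, so their levels are given as a description with no test. A list of 13 phosphatases of this family was drawn up, and these 3 are the ones that the panel holds. All 3 passed the filter for testing, a mean above 30, as did 445 of the 754. Dusp2 passed that filter through its level in a single group.

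The study asked how resistin-like molecule α (RELMα, encoded by Retnla) shapes peritoneal macrophages that respond to IL-4. Female C57BL/6 mice (labelled C57BI/6) of 6 to 8 weeks received PBS or IL-4c, a long-acting complex of IL-4 with an antibody against it, into the peritoneum on days 0 and 2. On day 4, CD11b+F4/80+ cells were sorted from each mouse and lysed, and their transcripts were counted without amplification on a Nanostring myeloid panel with 1 probe per gene. The values come from 11 mice: PBS Rα+/+ (wild-type, mice 1 and 2), PBS RαTd/Td (mice 3 and 4), IL-4c Rα+/+ (mice 5, 6 and 7) and IL-4c RαTd/Td (mice 9, 10, 11 and 12). In RαTd/Td mice both copies of Retnla carry a TdTomato reporter in place of several exons, in every cell and from the germ line on, since the allele was made with a deleter line whose Cre is driven by pCMV. The samples are bulk, from a single experiment, and the authors removed 1 further IL-4c Rα+/+ mouse that lay with the PBS mice, which was not analysed here. The labels name each sample as a separate mouse.

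MAP kinases are active while a threonine and a tyrosine in their activation loop carry phosphate, and dual-specificity phosphatases switch them off by removing both groups. Dusp1 and Dusp2 encode nuclear enzymes that are made within minutes of many stimuli, and Dusp1 is known in macrophages as a brake on the p38 and JNK kinases and on the cytokines they drive. Dusp6 encodes a cytoplasmic enzyme that prefers ERK, and its transcription follows ERK activity in many cells.

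The promoters are shown because Dusp1 and Dusp6 moved together across the groups while Dusp2 did not. All 3 genes matched the RefSeq table of build GRCm38.p6, which gives 250 bases before and 50 bases after each gene's start. The window of Dusp1 is chr17:26508423-26508722 on the minus strand, that of Dusp2 is chr2:127335909-127336208 on the plus strand, and that of Dusp6 is chr10:99262981-99263280 on the plus strand. Capitals mark the cyclic AMP response element TGACGTCA and a further copy of its core TGACG in Dusp1, and the E-box CACGTG in Dusp1 and Dusp2, and the sequences run from 5′ to 3′ on the strand of the gene.
Dusp1: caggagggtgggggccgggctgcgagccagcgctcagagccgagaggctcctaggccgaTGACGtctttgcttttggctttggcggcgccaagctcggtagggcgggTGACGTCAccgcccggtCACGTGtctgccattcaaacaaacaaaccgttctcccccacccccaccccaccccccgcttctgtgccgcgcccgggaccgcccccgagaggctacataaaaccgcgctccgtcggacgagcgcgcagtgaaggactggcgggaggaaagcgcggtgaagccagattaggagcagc
Dusp2: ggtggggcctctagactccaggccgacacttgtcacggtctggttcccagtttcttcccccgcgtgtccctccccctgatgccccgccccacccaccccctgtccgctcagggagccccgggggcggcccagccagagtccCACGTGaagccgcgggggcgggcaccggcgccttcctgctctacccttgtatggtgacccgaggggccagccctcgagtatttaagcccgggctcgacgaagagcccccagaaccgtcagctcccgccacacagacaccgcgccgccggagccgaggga
Dusp6: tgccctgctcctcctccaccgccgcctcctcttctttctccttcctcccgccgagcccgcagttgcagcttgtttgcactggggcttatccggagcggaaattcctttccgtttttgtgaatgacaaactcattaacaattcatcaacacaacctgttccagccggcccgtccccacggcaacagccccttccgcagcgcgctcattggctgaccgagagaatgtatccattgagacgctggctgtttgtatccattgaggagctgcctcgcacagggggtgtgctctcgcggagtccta

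The windows differed in the motifs they hold, searched on both strands. The palindrome TGACGTCA occurred once in Dusp1, 143 bases before the start, and in 1.79% of all 32851 promoters of the table. Its core TGACG occurred 3 times in Dusp1, where 2 of the 3 lie in the palindrome on opposite strands, 1 time in Dusp2 (not in capitals) and 0 times in Dusp6, and in 20.8% of all promoters. CACGTG occurred once in Dusp1 and once in Dusp2, and in 7.15% of all promoters. The GC box GGGCGG (not in capitals) occurred 3 times each in Dusp1 and Dusp2 and 0 times in Dusp6, and in 35.7% of all promoters. The AP-1 site TGANTCA (7.81% of all promoters), the ETS core CCGGAA (14.9%), the STAT6 site TTCNNNNGAA (6.95%) and TATAAA (13.6%) were in none of the 3 windows. G and C made up 67.0%, 70.7% and 57.3% of the windows of Dusp1, Dusp2 and Dusp6. These are matches of letters and say nothing about binding.

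Retnla matched the labels in every mouse. It was listed at 4631 and 4141 normalized counts in the PBS Rα+/+ mice and at 115675, 147349 and 171588 in the IL-4c Rα+/+ mice. All 6 RαTd/Td mice were at the floor of the table, a value of 30 that replaces any reading under 30 counts or under 30 normalized counts. Since counts were scaled by a different factor in each mouse, the lowest measurable value lay between 30.5 and 56.3 normalized counts, and a gene at the floor may have any level below that limit. Retnla was thus at least 77.9-fold lower in RαTd/Td than in Rα+/+ mice after PBS and at least 4466-fold lower after IL-4c. Where its probe lies relative to the replaced exons is not given, so the floor may mean no transcript or no target for the probe.

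Of 7 macrophage markers on the panel, 6 were above the floor in every mouse. Itgam, the CD11b gene and the most abundant of them, lay between 7780 and 11245 normalized counts over the 11 mice, and Adgre1, the F4/80 gene, between 5897 and 10617. The 7 markers summed to between 23600 and 29794 in each mouse. Some of the 7 were lower after IL-4c in both genotypes, and Adgre1 was higher in both. Adgre1 lay between 5897 and 7358 after PBS and between 7904 and 10617 after IL-4c. Cd68 lay between 2394 and 2449 in PBS RαTd/Td mice and between 3421 and 5543 in IL-4c RαTd/Td mice. In Rα+/+ mice its ranges overlapped, between 2878 and 3480 after PBS and between 3253 and 3801 after IL-4c. Fcgr1 was at the floor in all 3 IL-4c Rα+/+ mice and in 3 of 4 IL-4c RαTd/Td mice, and Cd14 lay between 1230 and 2066 after PBS and between 307 and 847 after IL-4c. Csf1r lay between 2656 and 4018 after PBS and between 1532 and 2357 after IL-4c, and Mertk between 429 and 749 and between 198 and 442. Markers of T cells (Cd28), NK cells (Nkg7), eosinophils (5 of 5, Siglecf and Epx included) and dendritic cells (4 of 4, Flt3 included) were at the floor in every mouse. Of 6 mast cell markers, Cpa3 reached 48.2 normalized counts in mouse 1 and the rest were at the floor throughout.

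**Figure D1:**
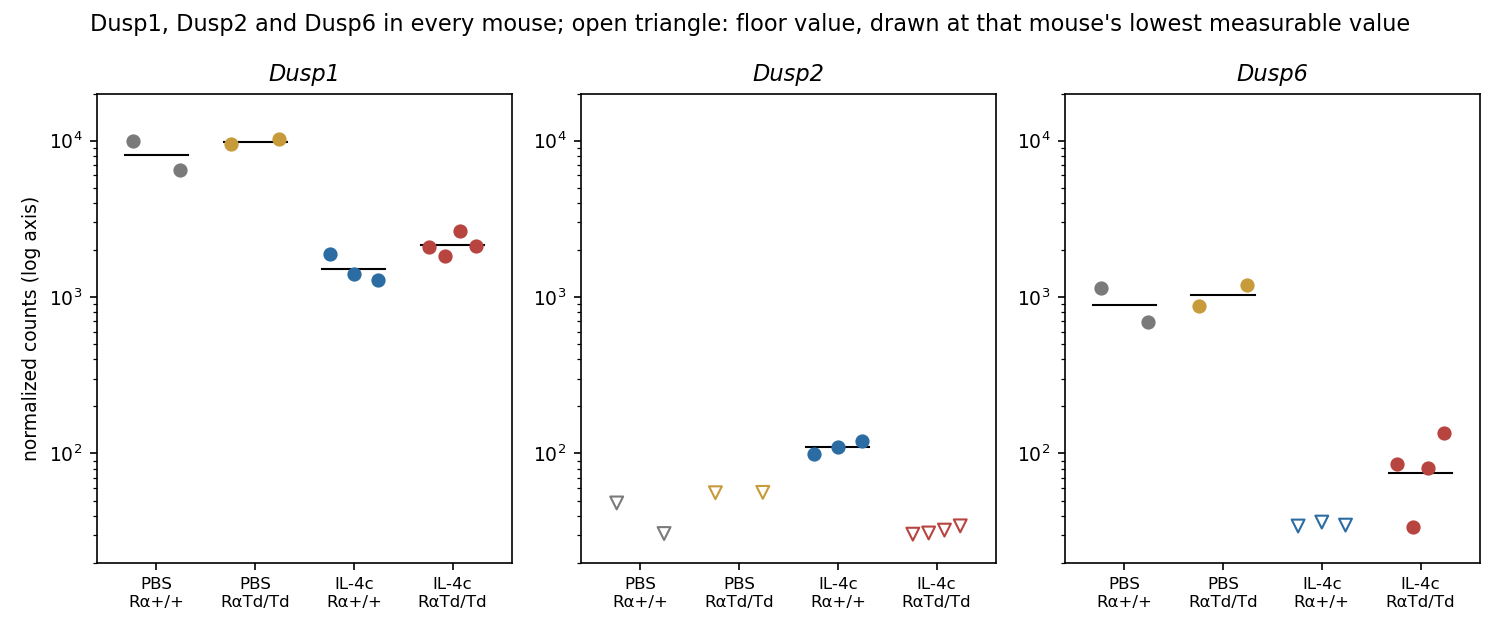
Normalized counts (log axis) of Dusp1, Dusp2 and Dusp6 in each mouse by group. Filled circles are measured values, black lines are geometric means of groups measured in all mice, and open triangles are mice at the floor, drawn at their lowest measurable value (30.7 to 56.3 for Dusp2 in PBS mice). Dusp1 is measured in all 11 mice, Dusp2 in 3 and Dusp6 in 8.

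Dusp1 was read well above the floor in every mouse and was lower after IL-4c in both genotypes. In PBS Rα+/+ mice it was at 9998 normalized counts in mouse 1 and 6455 in mouse 2, and in PBS RαTd/Td mice at 9491 in mouse 3 and 10184 in mouse 4. After IL-4c it was at 1877, 1407 and 1278 in Rα+/+ mice 5, 6 and 7. In the IL-4c RαTd/Td mice 9, 10, 11 and 12 it was at 2096, 1828, 2626 and 2119. The 4 PBS mice were all high and the 7 IL-4c mice all low, and the 2 sets did not overlap, with the lowest PBS mouse at 6455 and the highest IL-4c mouse at 2626. Of the 445 tested genes, 143 were lower in every IL-4c mouse than in every PBS mouse within both genotypes.

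The 4 groups, from the lowest, were IL-4c Rα+/+ at 1521 ± 315 (SD, n = 3), IL-4c RαTd/Td at 2167 ± 333 (SD, n = 4), PBS Rα+/+ at 8226 ± 2505 (SD, n = 2) and PBS RαTd/Td at 9837 ± 490.0 (SD, n = 2). The IL-4c groups overlapped, since mouse 5 lay above mouse 10, and the PBS groups overlapped, since mouse 1 lay above mouse 3. In this order the step from the IL-4c groups to the PBS groups was the 1 without overlap. Geometric means were 5.35-fold higher after PBS than after IL-4c in Rα+/+ mice and 4.58-fold higher in RαTd/Td mice. On the log2 scale, after adding 1, the difference was −2.42 ± 0.23 (SE) and −2.19 ± 0.22 (SE). The difference between the genotypes in that response was 0.23 ± 0.31 (SE), less than its own error. RαTd/Td against Rα+/+ mice, the log2 difference was 0.29 ± 0.25 (SE) after PBS, which turned to −0.12 under quantile normalization, and 0.52 ± 0.19 (SE) after IL-4c, which came to 0.20 under it. The spread between mice of a group was 0.27 (SD, log2).

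The counts behind Dusp1 leave little counting error. Division by each mouse's factor gave 8607 counts in mouse 2 and 1102 counts in mouse 7, the largest and the smallest. The 95% Poisson interval for mouse 7, for counting error only, was 1204 to 1356 normalized counts, and that for mouse 5 of the same group was 1787 to 1970. The highest to lowest ratio among mice was 1.47 in IL-4c Rα+/+ and 1.44 in IL-4c RαTd/Td mice. Mouse 2, the lowest PBS mouse for Dusp1, had a depth of 551546 counts and a scaling factor of 0.750, against depths of 268858 to 297254 and factors of 1.61 to 1.88 in the other PBS mice. What part of its lower value goes with that was not tested. With mouse 2 left out the PBS difference between genotypes was −0.02, and with mouse 1 left out it was 0.61.

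Dusp2 was measured in 1 of the 4 groups. In the IL-4c Rα+/+ mice 5, 6 and 7 it was at 99.6, 110 and 121 normalized counts. In the 4 PBS mice and in the 4 IL-4c RαTd/Td mice it was at the floor. The 3 measured values lay above the lowest measurable value of every other mouse, which reached 56.3 in mouse 4, so IL-4c Rα+/+ did not overlap any other group.

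The mean of the IL-4c Rα+/+ mice was 110 ± 10.5 normalized counts (SD, n = 3). Their geometric mean was at least 2.85-fold higher than in PBS Rα+/+ mice and at least 3.43-fold higher than in IL-4c RαTd/Td mice, taking the floored mice at their lowest measurable values. The other 3 groups have limits and no order among themselves. The readings were 87, 91 and 104 counts, and the 95% Poisson intervals of the 3 mice were 79.8 to 123, 88.9 to 136 and 98.6 to 146 normalized counts. The 3 intervals overlap, and their lower ends lie above every limit. The fitted log2 differences of 1.84 against PBS and −1.84 for RαTd/Td against Rα+/+ after IL-4c depend on the floor and are no measure of size. A single floor of 56.3 for all mice brought them to 0.95 and −0.95.

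Dusp6 was lower after IL-4c in both genotypes, and at the floor in the IL-4c Rα+/+ mice. It was at 1134 and 694 normalized counts in the PBS Rα+/+ mice 1 and 2, and at 873 and 1200 in the PBS RαTd/Td mice 3 and 4. The 3 IL-4c Rα+/+ mice were all at the floor, with lowest measurable values of 34.3, 36.4 and 34.8. In the IL-4c RαTd/Td mice 9, 10, 11 and 12 it was at 85.7, 34.1, 80.8 and 134. Every PBS mouse lay far above every IL-4c mouse, with 694 the lowest value after PBS and 134 the highest after IL-4c. Like Dusp1, it is among the 143 of 445 tested genes lower in every IL-4c mouse within both genotypes.

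From the lowest, the groups were IL-4c Rα+/+ (all below 36.4), IL-4c RαTd/Td at 83.7 ± 40.9 (SD, n = 4), PBS Rα+/+ at 914 ± 311 (SD, n = 2) and PBS RαTd/Td at 1036 ± 231 (SD, n = 2). The PBS groups overlapped. The IL-4c groups could not be told apart in full: mice 9, 11 and 12 lay above the limits of all IL-4c Rα+/+ mice, and mouse 10, at 34.1 and 33 counts, lay under them. Its 95% Poisson interval was 23.5 to 47.9 normalized counts. Geometric means were at least 25.2-fold higher after PBS than after IL-4c in Rα+/+ mice and 13.6-fold higher in RαTd/Td mice. In RαTd/Td mice the log2 difference was −3.75 ± 0.44 (SE). After PBS the genotypes differed by 0.21 ± 0.51 (SE), less than the error, and leaving out a mouse gave −0.15 to 0.56. After IL-4c the geometric mean was at least 2.13-fold higher in RαTd/Td than in Rα+/+ mice. The fitted difference between the genotypes in the IL-4c response, 1.09 ± 0.64 (SE), depends on the floor in IL-4c Rα+/+ mice and came to 0.38 with a single floor.

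The spread of Dusp6 among the IL-4c RαTd/Td mice was wide, with a highest to lowest ratio of 3.94 against 1.44 for Dusp1 in these 4 mice. Mouse 12, the highest for Dusp6, was also the IL-4c mouse in which Ms4a1, a B cell gene, was above the floor, at 63.1 normalized counts. Whether other cells have a part in the spread of Dusp6 was not tested.

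IL-4c against PBS coincided with other measured differences between the samples, and in these bulk lysates fewer cells of a type and less RNA per cell cannot be told apart. Of 5 large peritoneal macrophage markers, all measured after PBS, Cxcl13 was at the floor in the 3 IL-4c Rα+/+ mice. Their sum was 21525, 16562, 19703 and 20364 normalized counts in PBS mice 1 to 4, and 8262, 7819 and 9296 in IL-4c Rα+/+ mice 5 to 7. In IL-4c RαTd/Td mice 9 to 12 it was 10631, 10222, 10302 and 6286. Alox15, the most abundant, set much of that sum. Timd4 lay between 2567 and 4623 after PBS and between 1044 and 1646 after IL-4c, and Selp between 1774 and 2257 and between 940 and 1305. Gata6 was the marker of the 5 whose ranges overlapped, between 503 and 712 after PBS and between 536 and 654 after IL-4c.

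A B cell marker was also higher after PBS. Ms4a1 was at 105, 226, 192 and 242 normalized counts in PBS mice 1 to 4 and at the floor in 6 of 7 IL-4c mice, and Fcer2a, the other B cell gene on the panel, was at the floor in all 11. The neutrophil genes Ly6g, Mpo, Elane and Cxcr2 were at the floor in every mouse. Of 6 small peritoneal macrophage markers, led by Retnla, Cd74 lay between 3963 and 4865 in PBS Rα+/+ mice, 12683 and 16768 in PBS RαTd/Td mice, 2298 and 3891 in IL-4c Rα+/+ mice, and 3331 and 9394 in IL-4c RαTd/Td mice. The list did not move as 1, since Retnla was higher after IL-4c in Rα+/+ mice and Irf4 lay between 100 and 143 in PBS and between 160 and 206 in IL-4c Rα+/+ mice. The positive control probes, synthetic targets added to each lane, gave geometric means of 853 to 1021 counts in PBS lanes and 301 to 623 in IL-4c lanes. After IL-4c they also differed between the genotypes, at 301 to 441 counts in Rα+/+ and 507 to 623 in RαTd/Td mice. What part any of these has in the Dusp1, Dusp2 and Dusp6 differences was not tested.

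The values rest on scaling to 4 reference genes, whose geometric mean is set equal in every mouse by that scaling, so their levels cannot speak for it. Eef1g lay between 576 and 689 normalized counts over the 11 mice, Gusb between 659 and 927, Oaz1 between 1860 and 2163 and Rpl19 between 4498 and 6017. Under this scaling most genes were slightly lower after IL-4c, and subtracting the median gene of each mouse (centring) raised all differences against PBS by 0.30 in Rα+/+ and 0.26 in RαTd/Td mice. Relative to the median gene, the Dusp1 difference was −2.12 and −1.94 on the log2 scale. Dusp6 was −3.49 in RαTd/Td mice on that scale. Centring lowered the genotype differences by 0.15 after PBS and by 0.19 after IL-4c. Dusp1 in RαTd/Td against Rα+/+ mice was then 0.15 after PBS and 0.33 after IL-4c, and quantile normalization brought them to −0.12 and 0.20. No direction is given for Dusp1 between the genotypes after PBS.

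**Figure D2:**
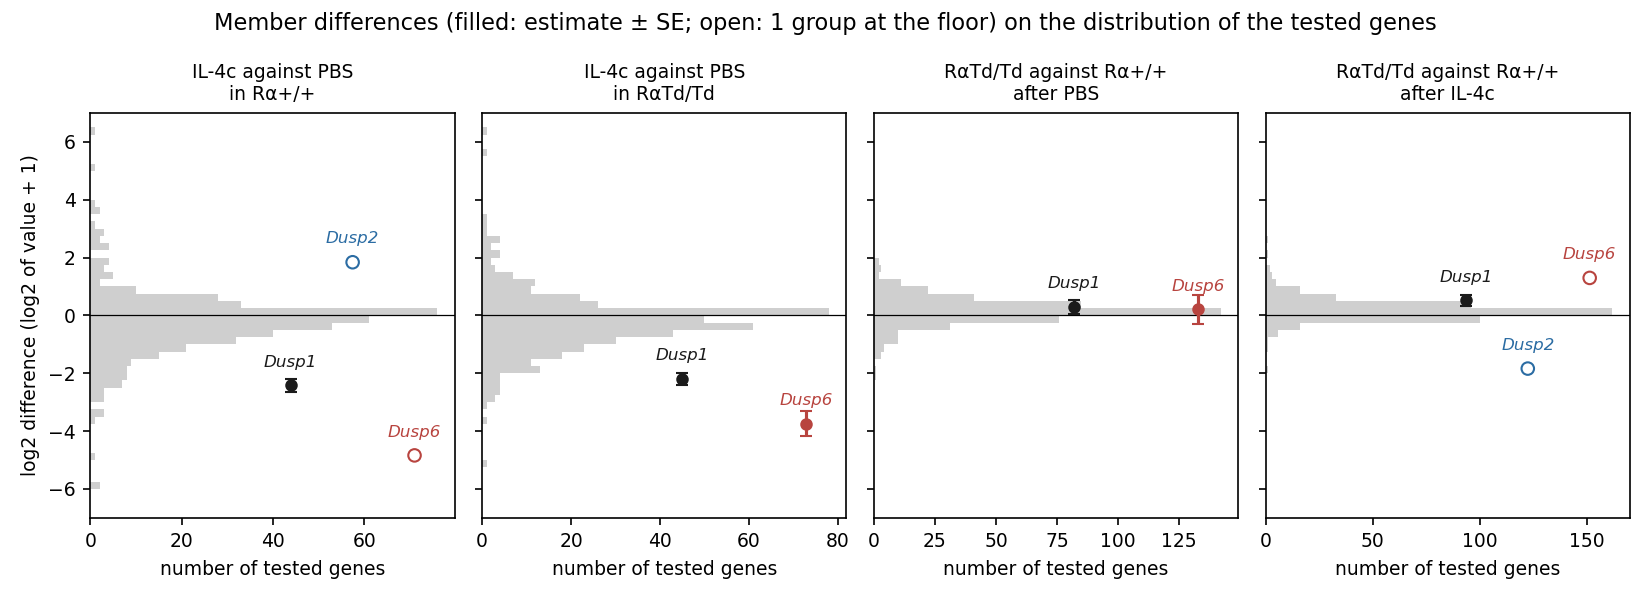
Fitted log2 differences (vertical axis) of the 3 phosphatase genes on the histogram of the tested genes (horizontal axis, number of genes per bin) for 4 comparisons. Filled points carry their SE, open points have 1 group at the floor and show the fitted value only, and Dusp2 is left out where both groups are at the floor. The axis leaves out Retnla in the 2 genotype comparisons. Dusp1 sits at −2.42 and −2.19 after IL-4c and at 0.29 and 0.52 between the genotypes, which were −0.12 and 0.20 under quantile normalization.

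Side by side, the 3 genes gave 2 patterns. After IL-4c in Rα+/+ mice, Dusp1 and Dusp6 were lower in every mouse than in every PBS mouse of that genotype, as were 42.2% of the tested genes, and Dusp2 was higher in every mouse, as were 18.9%. In RαTd/Td mice Dusp1 and Dusp6 were again lower in every mouse (43.6% of tested genes), and none of the 3 was higher in every mouse (15.5%). Between the genotypes after PBS, none of the 3 was separated in either direction (35.5% of tested genes higher and 12.6% lower in RαTd/Td). Between the genotypes after IL-4c, Dusp2 was lower in every RαTd/Td mouse (2.47% of tested genes) and neither of the others was separated (15.7% higher). The 3 genes were chosen on these values, so nothing is read from these counts. The comparisons with IL-4c share their IL-4c and PBS mice with the genotype comparisons.

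Dusp1 and Dusp6 were similar over the mice, and Dusp2 stood apart from both. Pearson's r of log2 values over the 11 mice was 0.975 for Dusp1 with Dusp6, −0.611 for Dusp1 with Dusp2 and −0.649 for Dusp2 with Dusp6. Within groups, over the 8 mice of the 3 groups in which both were measured, deviations of Dusp1 and Dusp6 from their group means gave r = 0.573. All r values here are descriptions, and the mice share treatment and genotype.

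**Figure D3:**
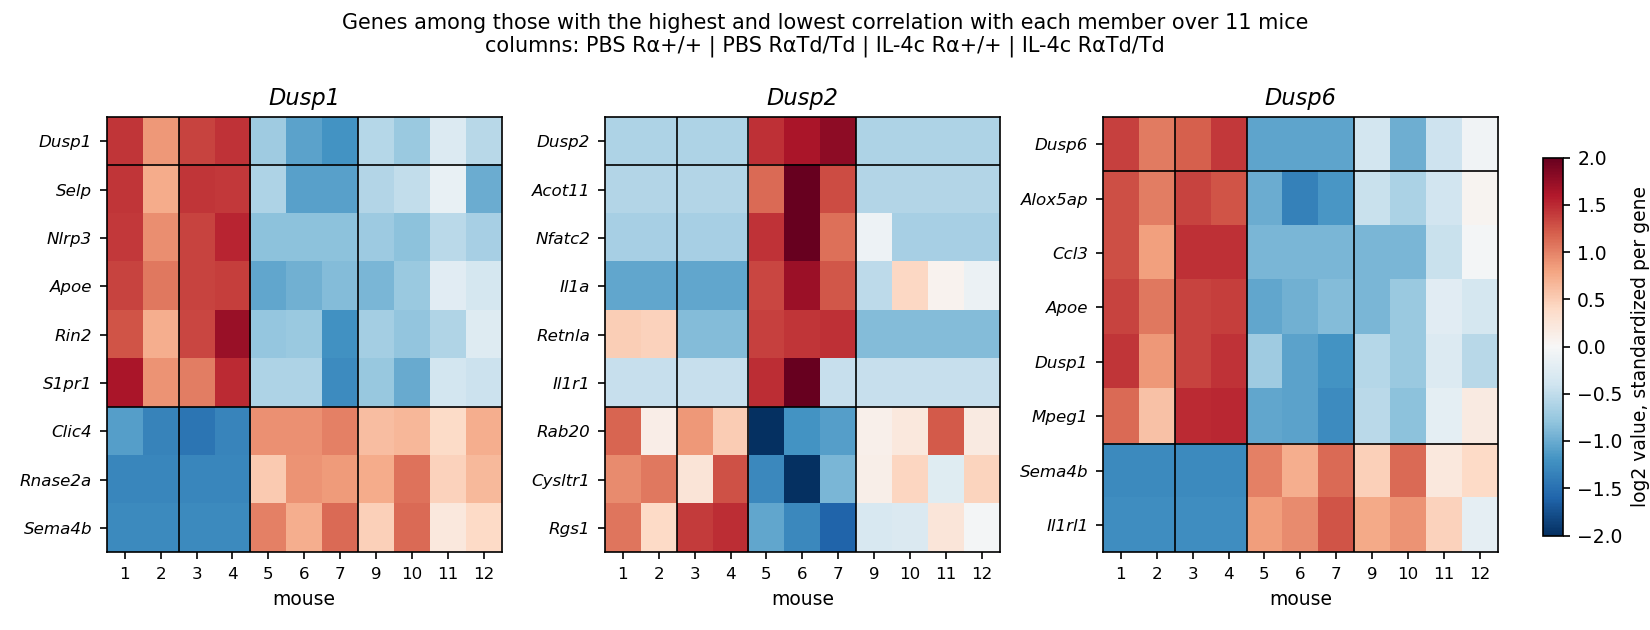
Log2 values of each phosphatase gene and of genes among the highest and lowest in Pearson's r with it over 11 mice, standardized per gene (colour), by mouse in the order of the 4 groups. For Dusp1 and Dusp6 the PBS mice 1 to 4 stand apart from the IL-4c mice, and for Dusp2 mice 5 to 7 stand apart from the other 8.

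The genes most like Dusp1 over the 11 mice were Selp (r = 0.986), an adhesion receptor and 1 of the 5 large peritoneal macrophage markers above, Nlrp3 (0.985), an inflammasome sensor, Apoe (0.980), a lipid carrier, Rin2 (0.979) and S1pr1 (0.977), a lipid receptor. The most opposite were Clic4 (−0.977), Rnase2a (−0.973) and Sema4b (−0.971). These patterns follow the step between PBS and IL-4c. Within groups, with deviations from the group means, r with Dusp1 over 11 mice was 0.826 for S1pr1, 0.780 for Selp, 0.634 for Rin2, 0.455 for Apoe and −0.0923 for Clic4. Nlrp3, Rnase2a and Sema4b were at the floor in 4 of 11 mice. Over the groups measured in full r was 0.983 for Nlrp3 (the 4 PBS mice), −0.911 for Rnase2a (the 7 IL-4c mice) and −0.550 for Sema4b (the 7 IL-4c mice). With 2 mice in each PBS group, the deviations in a group are equal and opposite, so the r for Nlrp3 says little.

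The genes most like Dusp6 were Alox5ap (r = 0.987), a helper of leukotriene synthesis, Ccl3 (0.977), a chemokine, Apoe (0.976), Dusp1 (0.975) and Mpeg1 (0.975), a pore-forming protein of phagocytes. Among the most opposite were Sema4b (−0.982) and Il1rl1 (−0.981), the receptor for IL-33. Within groups, over the 8 mice with Dusp6 measured, r with Dusp6 was 0.887 for Mpeg1, 0.850 for Alox5ap and 0.506 for Apoe. Ccl3 was at the floor in 5 of 11 mice and Sema4b and Il1rl1 in 4. Over PBS mice 1 to 4 r was 0.824 for Ccl3. Over IL-4c RαTd/Td mice 9 to 12 it was −0.844 for Sema4b and −0.826 for Il1rl1. With 2 mice in each PBS group, the deviations in a group are equal and opposite, so the r for Ccl3 says little.

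The genes most like Dusp2 were mostly at the floor in other mice, which limits what r says. They were Acot11 (r = 0.965, above the floor in 3 mice), Nfatc2 (0.953, 4 mice), Il1a (0.872, 7 mice), Retnla (0.868, 5 mice) and Il1r1 (0.716, 2 mice). The most opposite, all above the floor in 11 mice, were Rab20 (−0.879), Cysltr1 (−0.869) and Rgs1 (−0.811). Of the 445 tested genes, 2 were above the floor in every IL-4c Rα+/+ mouse and at the floor in all other mice, Dusp2 and Acot11. Another 2 were at the floor in every IL-4c Rα+/+ mouse and above it in all other mice, Dusp6 and Cxcl13. Acot11 and Cxcl13 are named in these counts because of their values.

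The kinases that these phosphatases act on, and the enzymes upstream of them, came from a list of 51 genes, 11 on the panel and 8 tested. Called genes are those with an adjusted p at or under 0.05 in a limma fit over all 445 genes, and a p above it does not show that values did not differ. After IL-4c in Rα+/+ mice 0 of the 8 rose (13.9% of all tested genes were called higher) and 2 fell (32.4% were called lower). In RαTd/Td mice 1 rose (15.3%) and 2 fell (36.6%). With a mouse left out, between 0 and 3 were called higher and between 1 and 3 lower in each genotype. The median of the 8 was 0.08 in Rα+/+ and −0.08 in RαTd/Td mice, or −0.04 and −0.14 with a gene at the floor set to its bound, against −0.18 and −0.23 over all tested genes. Mapk14, the p38α kinase, fell by 0.43 in Rα+/+ (limma, adjusted p = 0.00796) and by 0.52 in RαTd/Td mice (limma, adjusted p = 0.00196). Relative to the median gene it was −0.13 and −0.27 and was not called (limma, adjusted p = 0.405 and 0.0998). In RαTd/Td mice Map2k4, a kinase upstream of JNK, fell by 0.67, and Hras rose by 0.73. The first call ended with centring (−0.41) and without mouse 3 (−0.62), and the second without mouse 3 (0.74), 4 (0.71) or 10 (0.62). None of the 8 was called between the genotypes after PBS or after IL-4c or in the difference between responses, with Mapk14, the highest of them, at 0.20, 0.11 and −0.09.

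Other brakes on the same pathways were few on the panel. Of 15 other phosphatases listed, the panel holds Ptprc, the CD45 gene, which lay between 557 and 738 normalized counts over all mice and was called in none of the 5 comparisons. Of 15 feedback inhibitors, 4 are on the panel and Socs3 was tested. It fell by 1.02 after IL-4c in RαTd/Td mice (limma, adjusted p = 0.0029) and was at −0.26 ± 0.22 (SE) in Rα+/+ mice, and the difference between these responses, −0.75 ± 0.30 (SE), was not called.

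Most transcription factors downstream of MAP kinases were called lower after IL-4c, where Dusp1 and Dusp6 were lower too. Of 11 tested, 8 fell and 1 rose in Rα+/+ mice, and 9 fell and 0 rose in RαTd/Td mice, with medians of −0.86 and −1.56, where 32.4% and 36.6% of all tested genes were called lower. Klf4 rose by 1.64 in Rα+/+ mice. Nr4a1 fell by 1.23 there, a call that ended without mouse 1 (−1.22, limma, adjusted p = 0.0585). Ets1 was at the floor in all 3 IL-4c Rα+/+ mice, at least 2.36-fold lower than after PBS. Jun fell by 2.08, Atf3 by 1.93 and Nr4a1 by 1.87 in RαTd/Td mice. Ets1 was at the floor in 3 of 4 IL-4c RαTd/Td mice, so its −1.79 depends on the floor, and a single floor gave −0.96. These 4 were called with each mouse left out in turn and under centring and quantile normalization.

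After PBS, 4 of the 11 factors were higher in RαTd/Td than in Rα+/+ mice and 0 were lower, where 8.09% of all tested genes were called higher and 1.57% lower. Dusp1 (−0.12 under quantile normalization) and Dusp6 lay at 0.29 and 0.21 in this comparison. Jun was higher by 1.14 and Atf3 by 1.05, and both calls ended without mouse 4 (1.06 and 1.00, limma, adjusted p = 0.0681 for each). The count of 4 came to between 0 and 4 with a mouse left out. All 4 calls also ended with only the groups compared and by the methods' t-test after adjustment. Fosb, at the floor in mouse 1, was higher by 1.11 (0.66 with a single floor and 0.66 without mouse 1) and Btg2 by 1.05, calls that ended with centring (0.96 and 0.91) and in 9 and 6 of the 11 fits that left out a mouse (limma, adjusted p up to 0.175 and 0.209). After IL-4c, 0 of the 11 were called between the genotypes, where 1.57% of all tested genes were called higher in RαTd/Td mice and 1.12% lower, and Klf4, the most abundant, was at −0.28 ± 0.29 (SE). The difference between the responses was called for Jun at −1.22 (limma, adjusted p = 0.022) and Atf3 at −1.19 (limma, adjusted p = 0.0154), against 0.674% of tested genes called higher and 1.35% lower. The Jun call ended without mouse 2 (−1.15), 4 (−1.14), 5 (−1.22), 6 (−1.24), 7 (−1.20) or 10 (−1.20) and with centring (−1.26), and the Atf3 call without mouse 4 (−1.14) or 6 (−1.18).

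Dusp1 is itself on a list of transcripts that cells also raise during handling and dissociation. Beside Dusp1, 8 were tested, of which 6 are also among the factors above. The rest are Socs3, the feedback inhibitor above, and Nfkbia, also on the list of glucocorticoid and cyclic AMP brakes below. This list thus adds no gene that the other lists lack. After IL-4c 6 fell in Rα+/+ and 8 in RαTd/Td mice, with medians of −0.81 and −1.67, where 32.4% and 36.6% of all tested genes were called lower. After PBS 4 were called higher in RαTd/Td mice (8.09% of tested genes), and they are Jun, Atf3, Fosb and Btg2 again. That count came to between 0 and 4 when a mouse was left out. Nfkbia fell by 1.06, Ier3 by 0.94 and Jun by 0.86 in Rα+/+ mice, and Btg2 fell by 1.78 in RαTd/Td mice. The Ier3 call ended without mouse 1 (−0.88, limma, adjusted p = 0.0578). What part handling has in the Dusp1 difference was not tested.

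**Figure D4:**
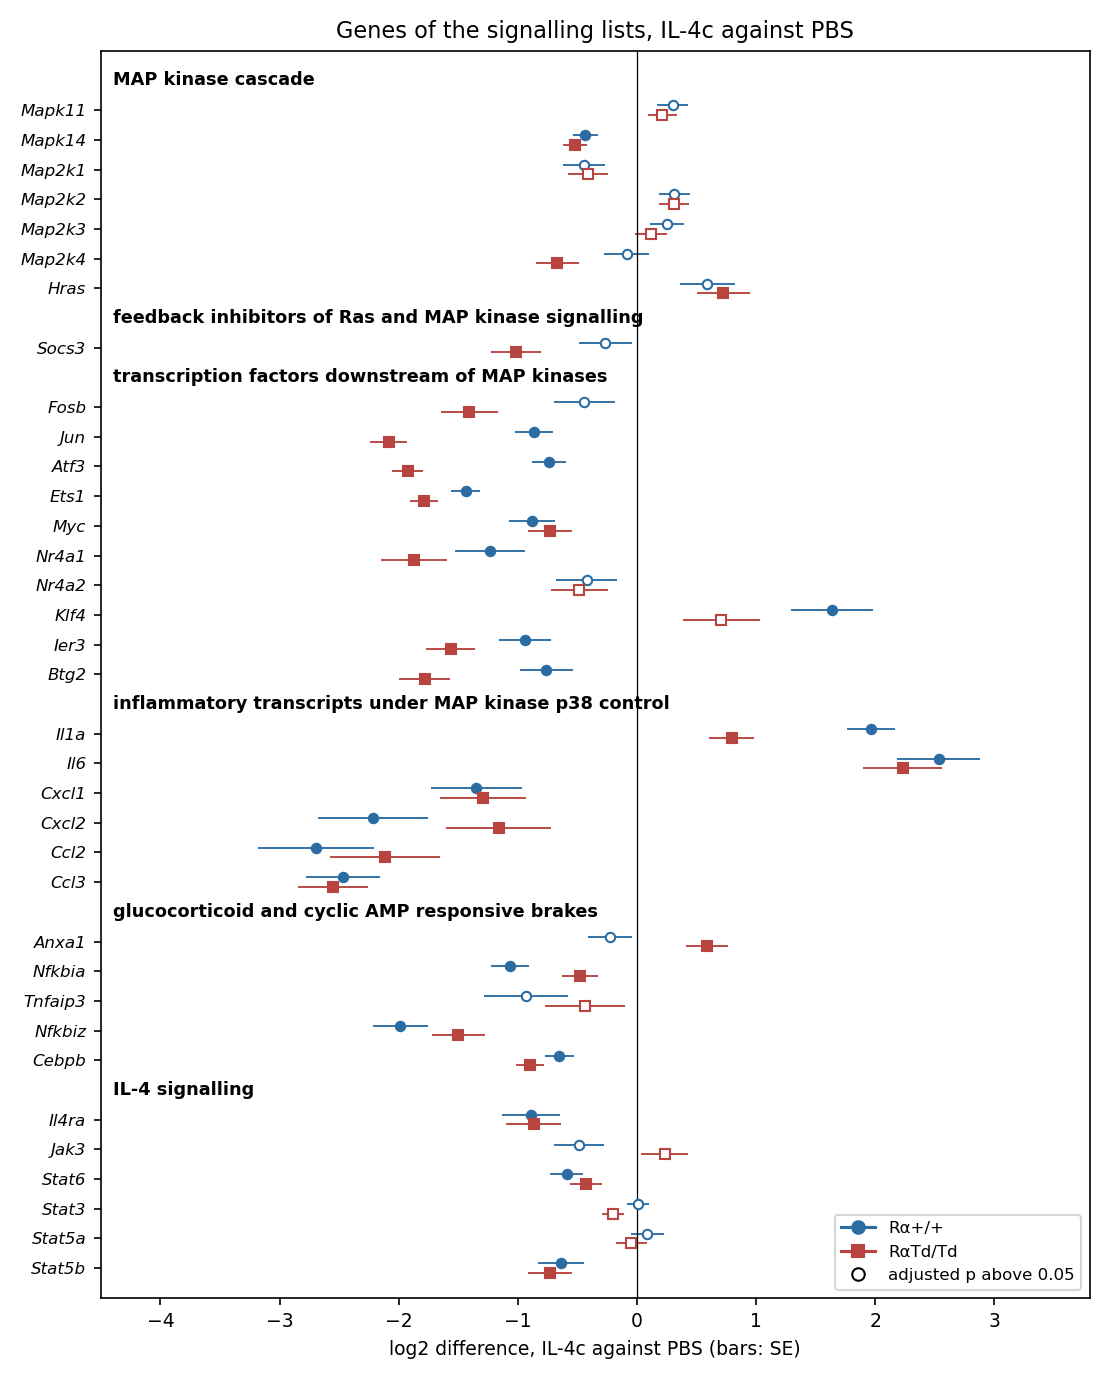
Log2 differences of IL-4c against PBS (horizontal axis, bars are SE) for tested genes of 6 lists (not all are drawn), in Rα+/+ (circles) and RαTd/Td mice (squares), with open symbols where the limma adjusted p was above 0.05. Genes that some group has wholly at the floor, such as Ets1, Ccl3 and Il6, have values that depend on it. Most downstream factors lie left of 0, as Jun does at −0.86 and −2.08, and Mapk14 lies at −0.43 and −0.52.

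Inflammatory transcripts under p38 control, 18 on the panel and 6 tested, were called in both directions. In each genotype 4 were called lower and 2 higher after IL-4c, with medians of −1.78 and −1.23, where 32.4% and 36.6% of all tested genes were called lower and 13.9% and 15.3% higher. Of the 2 called higher in RαTd/Td mice 1 was Il1a, at the floor after PBS, and with a single floor its difference was 0.07 and not called, so no rise is shown there. Cxcl2 in RαTd/Td mice (−1.16, limma, adjusted p = 0.0496) was not called with centring (−0.90), with quantile normalization (−0.90) or in 8 of 11 fits without a mouse (limma, adjusted p up to 0.204). Leaving out a mouse gave between 3 and 4 called lower in Rα+/+ and between 2 and 4 in RαTd/Td mice. Ccl2 was at −2.70 in Rα+/+ and −2.12 in RαTd/Td mice, and Ccl3, at the floor in all IL-4c Rα+/+ mice, was at least 4.84-fold lower there and at −2.55 in RαTd/Td mice. Cxcl2 was at −2.21 in Rα+/+ mice. These sizes depend on the floor, which 2 of 3 IL-4c Rα+/+ and 2 of 4 IL-4c RαTd/Td mice had for Ccl2, 2 of 4 IL-4c RαTd/Td mice for Ccl3 and mouse 7 for Cxcl2. With a single floor Ccl2 was −1.92 and −1.54, Ccl3 −2.03 in RαTd/Td mice and Cxcl2 −1.83 in Rα+/+ mice. Cxcl1, at the floor in 2 of 4 IL-4c RαTd/Td mice, was at −1.29 in that genotype (−0.62 with a single floor), a call that ended without mouse 4 (limma, adjusted p = 0.128) and with quantile normalization (limma, adjusted p = 0.0566). Il6, at the floor in all 4 PBS mice, was at least 4.63-fold higher in Rα+/+ and at least 2.57-fold higher in RαTd/Td mice after IL-4c. Il1a was the member of this list called between the genotypes after IL-4c, at 108 to 141 normalized counts in Rα+/+ and 40.0 to 68.2 in RαTd/Td mice (log2 difference −1.17, limma, adjusted p = 0.00594, lower in all 4 mice). That call ended with only the groups compared and by the methods' t-test after adjustment. Under all settings the difference lay between −1.36 and −1.01. After PBS none was called, and Cxcl2, with the highest mean log2 value of the 6 over all mice, was at −0.78 ± 0.51 (SE) between the genotypes and at 1.05 ± 0.64 (SE) in the difference between responses.

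Brakes that respond to glucocorticoids or cyclic AMP, signals that Dusp1 transcription is known to follow, had 5 genes tested. After IL-4c 3 fell in Rα+/+ (32.4% of all tested genes were called lower) and 3 in RαTd/Td mice (36.6%), and 1 rose in RαTd/Td mice (15.3% called higher), with medians of −0.93 and −0.48. Leaving out a mouse gave between 3 and 4 called lower in Rα+/+ mice, and between 2 and 3 lower and between 0 and 1 higher in RαTd/Td mice. Nfkbiz (−1.99 and −1.50) and Cebpb (−0.65 and −0.90) were called in both genotypes, though in Rα+/+ mice Cebpb relative to the median gene was −0.36 and not called. Nfkbia fell by 0.48 in RαTd/Td mice, a call that ended with centring (−0.22) and without mouse 3 (−0.50) or 4 (−0.45). Anxa1, a target of glucocorticoids, rose by 0.59 in RαTd/Td mice, not called without mouse 3 (0.60) or 4 (0.57), and was at −0.23 ± 0.19 (SE) in Rα+/+ mice. None was called between the genotypes. After IL-4c the median of the 5 in RαTd/Td against Rα+/+ mice was 0.49, against 0.12 over all tested genes, with Nfkbia at 0.49, Nfkbiz at 0.47, Anxa1 at 0.55, Tnfaip3 at 0.59 and Cebpb, the most abundant, at 0.03. After PBS Cebpb was at 0.28.

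The growth factor list, of receptors and their ligands that can act upstream of the ERK pathway, had 18 genes on the panel and 10 tested. Igf1, Pdgfa and Pdgfb are ligands. Il4ra, among those called lower in each genotype, is also on the IL-4 list below. In each genotype 4 were called lower and 2 higher after IL-4c, with medians of 0.09 and −0.03, or −0.11 and −0.06 with floored genes at their bounds. Over all tested genes 32.4% and 36.6% were called lower and 13.9% and 15.3% higher, and these counts lie near those shares. Leaving out a mouse gave between 3 and 4 called lower in each genotype, and between 1 and 3 called higher in Rα+/+ and between 1 and 2 in RαTd/Td mice. Pdgfb, 1 of the 2 called higher in RαTd/Td mice, was at the floor in all PBS mice, and with a single floor its difference was 0.13 and not called, so no rise is shown there. Csf1r, the receptor for macrophage colony-stimulating factor, which signals through ERK, fell in Rα+/+ and RαTd/Td mice (−0.97 and −0.98). So did Csf3r (−2.92, with mouse 5 at the floor, and −2.81) and Mertk (−1.08 and −0.93), and Insr rose by 0.93 in Rα+/+ mice. After PBS Fgfr1 was higher by 0.59 in RαTd/Td mice, a call that ended with centring (0.44) and in 8 of 11 fits without a mouse (limma, adjusted p up to 0.207). After IL-4c Mertk was higher by 0.78, a call that ended with centring (0.59) and in 9 of 11 such fits (limma, adjusted p up to 0.193). No gene of this list was called in the difference between responses, with Csf1r at −0.01 ± 0.24 (SE).

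Of the IL-4 receptor pathway itself 6 genes were tested. After IL-4c 3 fell in Rα+/+ (32.4% of all tested genes were called lower) and 3 in RαTd/Td mice (36.6%), with medians of −0.54 and −0.31. Leaving out a mouse gave between 1 and 4 and between 0 and 4 called lower. Il4ra, the receptor chain, fell by 0.89 in Rα+/+ and by 0.87 in RαTd/Td mice, calls that ended without mouse 1 (−0.85) or 2 (−0.92) in the former and without mouse 4 (−0.68) in the latter. Both also ended with quantile normalization (−0.62 and −0.50, limma, adjusted p = 0.0528 and 0.0925). Stat6, its main transcription factor, fell in both (−0.59 and −0.43), as did Stat5b (−0.64 and −0.73). Relative to the median gene Stat6 was −0.29 and −0.17 and Stat5b −0.34 and −0.47, and none of these 4 was called. The Stat6 call in RαTd/Td mice also ended without mouse 3 (−0.44) or 4 (−0.41), and the Stat5b calls ended without mouse 1 (−0.43), 5 (−0.58) or 6 (−0.59) in Rα+/+ and without mouse 4 (−0.72) in RαTd/Td mice. Stat3 was higher by 0.42 in RαTd/Td mice after PBS, a call that ended with centring (0.28) and without mouse 3 (0.44), 4 (0.40) or 5 (0.42). None was called between the genotypes after IL-4c, with Stat6 at 0.33 ± 0.12 (SE).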

How the data were processed

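By the account of the authors, lysates of sorted cells were read on the myeloid panel of Nanostring (Innate Immunity, v2), and counts were normalized to Eef1g, Gusb, Oaz1 and Rpl19 in Nanostring Advanced Analysis, whose version is not given in the sources used here. The deposited gene values are signal in normalized counts with low values replaced by 30. Counts were recovered by dividing by the factor of each mouse, after which 100% of values up to 1000 were whole within 0.1. They gave a depth of 268858 to 574505 counts per mouse over genes above the floor. Depth and the number of mice limit precision.

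Genes with a mean above 30 were tested, 445 of 754. The log2 of each value plus 1 entered a limma fit (version 3.58.1, R 4.3.3) in which every group has its own coefficient, 5 comparisons were drawn from it, and p-values were adjusted per comparison (Benjamini-Hochberg). The fit and the recovery of factors were tested on simulated data. Fold bounds put each floored mouse at its lowest measurable value and compare geometric means. Pearson's r, intervals and motifs were computed in Python 3.11.15 with SciPy 1.17.1, and promoters are from RefSeq.

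The members and the 10 gene lists were chosen with earlier results of these data known. Named genes are the members, Retnla, the reference genes, the called genes of each list per comparison (up to 4, by the largest log2 difference; with none called, the tested one with the highest mean log2 value), the 5 genes most like and the 3 most opposite to each member, the most abundant marker of each cell type, and further markers (Adgre1, Gata6, Cd74, Irf4, Cd14, Csf1r, Mertk, Timd4, Selp, Fcgr1, Cxcl13 and those at the floor in every mouse) added after the values were seen. Pdgfb is named for its floor, Tnfaip3 to give all 5 of its list and Cd68 for its values. Some genes that this rule names are not printed or drawn. Alternatives were other filters on low values, centring, quantile normalization, 10 added, a single floor, only the groups compared, a mean-variance trend with robust moderation, each mouse left out, unadjusted p-values and the methods' t-test.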

Additional observations from a re-analysis of the deposited data

Results flagged for a closer look

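For Dusp1, Dusp6 and each named gene with a called difference, the 4 IL-4c RαTd/Td mice were searched for a mouse whose gap to the next is large against the range, in 33 groups with all 4 mice above the floor. Of these, 3 had a mouse far from the rest, where chance flags about 1 in 20 groups: Fgfr1 in mouse 11 (1869 normalized counts), Ier3 in mouse 12 (196) and Nfkbiz in mouse 11 (273). Dusp1 and Dusp6 had none. The IL-4c response differed between the genotypes for Jun (log2 difference −1.22) and Atf3 (−1.19) among the listed genes, by the interaction term of the limma fit. The Jun call ended in 6 of 11 fits without a mouse and with centring, and the Atf3 call without mouse 4 or 6. For Dusp1, Dusp2 and Dusp6 that difference was not tested.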

How the results depend on the processing

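The counts of genes called after IL-4c, 206 in Rα+/+ and 231 in RαTd/Td mice, stayed within 1.5 times under the settings tried, and leaving out a mouse gave 147 to 229 and 158 to 249. Calls higher made up 30.1% and 29.4% of them, and 53.5% and 48.6% with centring, or 49.3% and 44.9% with quantile normalization. Between the genotypes after PBS, 43 genes were called (83.7% higher), and 18 without a filter, 26 with centring (61.5% higher), 23 with quantile normalization (65.2% higher), 3 with only the groups compared, 2 by the methods' t-test after adjustment, 102 at an unadjusted p and 3 to 73 without a mouse. After IL-4c 12 were called (58.3% higher), and 5 without a filter, 7 with a mean above 100, 6 with every mouse above 30, 4 with a single floor, 2 with only the groups compared, 2 by the methods' t-test after adjustment and 73 before it, 97 at an unadjusted p and 5 to 27 without a mouse. There 37.5% were higher with centring and 41.7% with quantile normalization. The difference between responses gave 9, and 4 with a mean above 100, 2 with every mouse above 30, 18 with quantile normalization, 69 at an unadjusted p and 3 to 34 without a mouse. Stricter filters test fewer genes; other causes were not tested.

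In the order of the comparisons named so far, Dusp1 was −2.12 after IL-4c in Rα+/+ mice with centring and −1.87 in RαTd/Td mice with quantile normalization, which also gave −0.12 after PBS (reversed from 0.29) and 0.20 after IL-4c. Leaving out a mouse gave −2.74 to −2.10 after IL-4c in Rα+/+ mice, −0.0242 to 0.61 between the genotypes after PBS and −0.0889 to 0.54 for the difference between responses. Dusp2 in Rα+/+ mice was 2.14 with centring, 1.98 with quantile normalization, 1.58 with 10 added and 0.95 with a single floor. Its genotype difference after IL-4c was −2.03, −1.98, −1.58 and −0.95, and its difference between responses −1.98, −1.58 and −0.95 under the last 3 of these. With both groups at the floor, centring alone moved Dusp2 to 0.26 after IL-4c in RαTd/Td mice and to −0.15 between the genotypes after PBS. For Dusp6 a single floor gave −3.95 after IL-4c in Rα+/+ mice, 0.59 between the genotypes after IL-4c and 0.38 for the difference between responses. The cause of these shifts was not tested.

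Of the 69 calls of listed genes, 20 ended with centring, 19 with quantile normalization, 15 with only the groups compared and 27 by the methods' t-test after adjustment, and none reversed. No mouse numbers are shared between groups.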
